A study of Homo sapiens with 2 samples.

Results

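Amino acid transporters are membrane proteins of the solute carrier (SLC) superfamily that move amino acids across the plasma membrane and the lysosomal membrane. The group described here holds 58 of the 58735 genes in the count tables. Its members are the protein-coding genes of GENCODE release 44 whose symbols begin with SLC1A, SLC3A, SLC6A, SLC7A, SLC36A, SLC38A or SLC43A and end in a number, matched by Ensembl identifier, with SLC7A11 left out by the rule. The rule itself uses symbols only and no measured value. The symbol families are wider than the label: SLC6 also includes carriers of monoamines, GABA, creatine and taurine, and SLC43A3 carries purine nucleobases.

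Proliferating epithelial cells take up essential amino acids mainly through exchangers and sodium-coupled carriers that work in series. Sodium-coupled carriers such as SLC38A1, SLC38A2 and SLC1A5 bring in small neutral amino acids and glutamine, and exchangers such as SLC7A5 swap these for leucine and other large neutral amino acids. SLC7A5 reaches the cell surface as a disulphide-linked heterodimer with the glycoprotein SLC3A2 (CD98 heavy chain). Supply of leucine, arginine and glutamine is read at the lysosome by the mTORC1 kinase complex, and shortage is answered by the kinase GCN2 and the transcription factor ATF4, which raises transcription of several transporters.

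Both libraries came from MCF10a-Snail-ER cells, a human mammary epithelial line with stable expression of the transcription factor Snail fused to the estrogen receptor, which had been given tamoxifen at 100 nM over 1 day as the start of an epithelial-to-mesenchymal transition. The medium contained horse serum, EGF, hydrocortisone, cholera toxin, insulin and added L-glutamine. Polyadenylated RNA was read as native strands on a MinION (Oxford Nanopore direct RNA) and as an amplified, fragmented cDNA library of the TruSeq stranded mRNA kit (Illumina). Each platform has 1 library and the samples analysed here include no untreated or parental cells, so the question open to these data is how the 2 platforms measure each transporter in matched RNA, and no effect of Snail can be read from them. Intervals and tests therefore reflect the error of counting alone, in 1 library per platform, and say nothing of the spread between cultures.

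Depth was 403235 counts by Nanopore and 191741714 by Illumina. A single count was worth 2.48 CPM (counts scaled to a library total of 1000000) by Nanopore and 0.00522 CPM by Illumina. A floor of 3 counts, chosen for genes without a count, was 7.44 and 0.0156 CPM. All 9 markers of basal mammary epithelium were detected by both platforms, and their sum was 3658 CPM in the Nanopore and 3907 CPM in the Illumina library. The luminal markers summed to 1654 CPM by Nanopore and 692 CPM by Illumina, where ESR1 can include the construct. Of the 5 leukocyte markers, 4 had no Nanopore count, CD3E was at 0 in both libraries and CD14 was at 12.4 CPM by Nanopore and 10.95 CPM by Illumina, and of the 4 endothelial markers 3 had no Nanopore count. Of the 6 fibroblast markers 4 had no Nanopore count, and DCN was at 24.8 CPM by Nanopore and 26.5 CPM by Illumina. By Illumina 4 leukocyte, all 4 endothelial and all 6 fibroblast markers had counts, with sums of 11.1, 6.61 and 33.8 CPM.

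Of the 11 transporters with at least 10 Nanopore counts, 9 had a promoter window in the RefSeq table, and 3 of these windows held a motif from a short list searched here: the E-box CACGTG of MYC and MAX, the E-box CAGGTG bound by Snail, and the core TGATGNAA of the C/EBP-ATF response element bound by ATF4. Each motif was searched on both strands, in 1 window of 300 bases per gene, from 250 bases before to 50 bases after the RefSeq transcription start nearest to the reference transcript's start (GRCh38.p14). They are shown because they belong to the leading glutamine carrier, the leading leucine exchanger and the leading cationic carrier, and capitals mark the match. The windows are chr12:46372724-46373023 (minus strand) for SLC38A2, chr16:87869458-87869757 (minus strand) for SLC7A5 and chr13:29595639-29595938 (minus strand) for SLC7A1.
SLC38A2: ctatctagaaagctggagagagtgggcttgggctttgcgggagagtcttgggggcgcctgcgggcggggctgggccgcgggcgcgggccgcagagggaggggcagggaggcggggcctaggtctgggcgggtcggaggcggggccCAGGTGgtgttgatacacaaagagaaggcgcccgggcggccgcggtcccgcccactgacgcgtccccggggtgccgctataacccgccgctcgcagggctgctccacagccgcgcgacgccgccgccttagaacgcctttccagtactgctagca
SLC7A5: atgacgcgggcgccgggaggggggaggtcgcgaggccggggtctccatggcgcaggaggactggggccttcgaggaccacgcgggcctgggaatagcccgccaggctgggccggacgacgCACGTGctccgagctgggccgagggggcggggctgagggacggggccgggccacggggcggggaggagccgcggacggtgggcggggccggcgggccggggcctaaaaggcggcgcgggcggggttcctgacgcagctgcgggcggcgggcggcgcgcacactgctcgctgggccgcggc
SLC7A1: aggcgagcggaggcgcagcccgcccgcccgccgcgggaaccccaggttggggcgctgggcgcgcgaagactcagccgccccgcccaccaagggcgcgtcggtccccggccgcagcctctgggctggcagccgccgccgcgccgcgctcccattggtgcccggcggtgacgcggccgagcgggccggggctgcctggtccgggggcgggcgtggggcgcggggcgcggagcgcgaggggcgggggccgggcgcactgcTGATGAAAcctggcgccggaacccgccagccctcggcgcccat

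A window was found for 44 of the 58 transporters. CACGTG was in 7 of these 44 windows (15.9%) and in 8.86% of 15344 windows of protein-coding genes, CAGGTG in 9 (20.5%, against 19.6%) and TGATGNAA in 2 (4.55%, against 2.40%). No motif overlapped another in the windows printed. A match is a description of the letters, and the count tables hold no binding data.

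Transporter transcripts were concentrated in a few genes. Together the 58 genes held 568 Nanopore counts, 0.141% of that library (95% Wilson interval 0.130 to 0.153%), and 435673 Illumina counts, 0.227% (0.2265 to 0.2279%). SLC38A2, SLC7A5, SLC3A2, SLC1A5 and SLC38A1 made up 75.2% of the transporter counts by Nanopore and 70.3% by Illumina. At least 1 count was present for 22 transporters by Nanopore and for 41 by Illumina. Of these 41, 19 had Illumina counts only, from 0.00522 to 18.1 CPM, and 17 of the 58 had no count in either library.

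**Figure D1:**
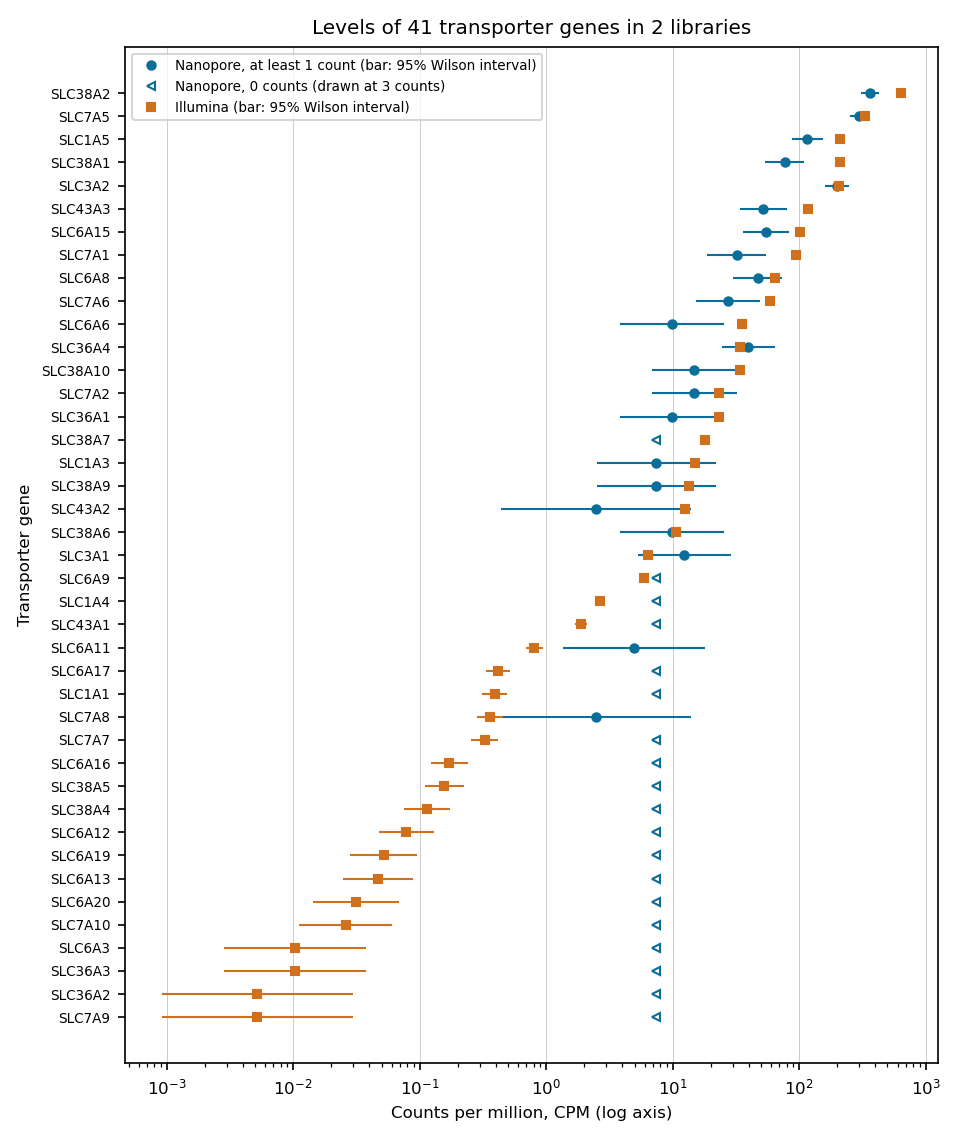
Levels of the 41 transporters with an Illumina count, in CPM on a log axis. Circles are Nanopore values, open triangles mark genes without a Nanopore count and are drawn at 3 counts (7.44 CPM), squares are Illumina values, and bars are 95% Wilson intervals. All 13 transporters at 30 CPM or more by Illumina had Nanopore counts, and only 3 of the 21 below 10 CPM did.

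Detection followed abundance. Nanopore counts were present for all 13 transporters with an Illumina level of 30 CPM or more and for 6 of the 7 between 10 and 30 CPM, where 95.3% of all genes were detected. Between 3 and 10 CPM 1 of 2 was detected, against 77.6% of all genes in that range, and between 1 and 3 CPM 0 of 2 was, against 55.5%. Below 1 CPM, 2 of 17 had a Nanopore count, SLC6A11, the GABA transporter GAT3, with 2 counts, and SLC7A8, the LAT2 light chain, with 1. Both lay between 0.1 and 1 CPM, where 28.0% of all genes were detected, against 9.82% below 0.1 CPM.

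The SLC6 family, which is known for neuronal and renal carriers, was detected in part. Of its 19 members 12 had an Illumina count, against 41 of all 58 transporters, 4 had a Nanopore count, against 22 of 58, and 7 had no count in either library, among them SLC6A4, the serotonin transporter, and SLC6A14, a broad amino acid carrier. A count of 0 allows a level of up to 7.44 CPM by Nanopore and 0.0156 CPM by Illumina. SLC6A3, the dopamine transporter, had 2 Illumina counts and no Nanopore count. The glutamate transporters SLC1A2, SLC1A6 and SLC1A7 were at 0 in both libraries, and so were SLC7A3, SLC7A4, SLC7A13, SLC7A14, SLC38A3, SLC38A8 and SLC38A11.

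The leading carriers were those of glutamine and small neutral amino acids. SLC38A2 (SNAT2, ENSG00000134294, chromosome 12, 46358188 to 46372773, hg38), a sodium-coupled carrier of glutamine and alanine, had 147 Nanopore counts, 365 CPM (95% Wilson interval 310 to 428), and 122050 Illumina counts, 637 CPM. It was the most abundant transporter on both platforms. Its Nanopore CPM was 1.75-fold lower than its Illumina CPM (log2 ratio of CPM + 1, -0.80, adjusted p = 1.29e-12, exact binomial test with Benjamini-Hochberg adjustment over 12414 tested genes). SLC38A1 (SNAT1, ENSG00000111371, chromosome 12, 46183063 to 46270017), a glutamine carrier on the same strand, had 31 Nanopore counts, 76.9 CPM (54.2 to 109), and 209 CPM by Illumina. The Nanopore value was 2.72-fold lower, with a log2 ratio of -1.43 and an adjusted p of 3.80e-10 by the same exact test.

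The relation between these 2 paralogs was alike on both platforms once the Illumina counts were divided by transcript length. SLC38A2 gave 4.74 Nanopore reads per read of SLC38A1 (95% exact interval 3.202 to 7.23) and 5.14 units of Illumina TPM per unit of SLC38A1. TPM here is the Illumina count per base of the MANE Select or Ensembl canonical transcript, scaled to the same sum as CPM, and a Nanopore read stands for 1 RNA strand, so its CPM is not divided by length. The transcripts used were 4795 bases for SLC38A2 and 8097 bases for SLC38A1.

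SLC1A5 (ASCT2, ENSG00000105281, chromosome 19, 46774883 to 46788594), a sodium-dependent exchanger of glutamine and other neutral amino acids, had 47 Nanopore counts, 117 CPM (87.7 to 155), and 212 CPM by Illumina. Its log2 ratio was -0.86 (adjusted p = 3.45e-05, exact binomial test). In the same family, SLC1A3, the glutamate transporter EAAT1, had 3 Nanopore counts and 15.1 CPM by Illumina, and the neutral amino acid exchanger SLC1A4 (ASCT1) had none, with 2.69 CPM by Illumina.

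The other SLC38 genes were at 34.0 CPM or less by Illumina. SLC38A10 had 6 Nanopore counts, SLC38A6 had 4, and SLC38A9, the lysosomal carrier that reports arginine to mTORC1, had 3 counts, 7.44 CPM (2.53 to 21.9), against 13.5 CPM by Illumina. SLC38A7, also called SNAT7 and known as a lysosomal glutamine exporter (ENSG00000103042, chromosome 16, 58665109 to 58684770), had no Nanopore count and 3475 Illumina counts, 18.1 CPM. Set against the Nanopore level of 3 counts its Illumina CPM was 2.44-fold higher, a value that depends on the level chosen. The exact interval of its CPM ratio had an upper end of -0.99 on the log2 scale and no lower end. Its fitted log2 ratio of -4.26 depends on the pseudocount of 1 CPM and is no bound, and its adjusted p was 0.00408 (exact binomial test).

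The CD98 heavy chain and SLC7A5, the most abundant of the light chains counted here, were each measured at nearly the same CPM on both platforms. SLC3A2 (ENSG00000168003, chromosome 11, 62856004 to 62888880) had 81 Nanopore counts, 201 CPM (162 to 249.6), and 208 CPM by Illumina, a log2 ratio of -0.05 with an adjusted p of 0.901 by the exact test. The 95% exact interval of its CPM ratio ran from -0.38 to 0.26 on the log2 scale. SLC7A5 (LAT1, ENSG00000103257, chromosome 16, 87830023 to 87869507), the exchanger of leucine and other large neutral amino acids, had 121 Nanopore counts, 300.1 CPM (251 to 359), and 331 CPM by Illumina. Its log2 ratio was -0.14 (adjusted p = 0.425, exact binomial test), with an interval of -0.41 to 0.12.

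The balance of heavy to light chain depended on the platform and on the length used. Nanopore gave 0.669 reads of SLC3A2 per read of SLC7A5 (95% exact interval 0.499 to 0.894), and 0.609 (0.456 to 0.809) per read of the 5 light chains SLC7A5, SLC7A6, SLC7A7, SLC7A8 and SLC7A10 as a group. By Illumina TPM the same values were 1.52 and 1.34, and with the union of all exons as length the first became 0.469. SLC3A2 has a reference transcript of 1885 bases and a union of 6392 bases, so the tables do not settle which chain was more abundant. SLC7A5 provided 91.0% of the light chain reads by Nanopore and 88.3% of the light chain TPM by Illumina. SLC7A11, another partner of SLC3A2, is not in these sums.

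The second light chain in order was SLC7A6 (y+LAT2, ENSG00000103064), an exchanger of arginine and neutral amino acids, with 11 Nanopore counts, 27.3 CPM (15.2 to 48.9), and 58.7 CPM by Illumina. Its log2 ratio was -1.08 (adjusted p = 0.0156, exact binomial test). SLC7A7 and SLC7A8 were at 0.329 and 0.36 CPM by Illumina. SLC3A1, the renal heavy chain rBAT, had 5 Nanopore counts and 6.36 CPM by Illumina.

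Among the cationic carriers of arginine and lysine, SLC7A1 (CAT1, ENSG00000139514, chromosome 13, 29509414 to 29595688) had 13 Nanopore counts, 32.2 CPM (18.8 to 55.2), and 94.9 CPM by Illumina. The Nanopore value was 2.94-fold lower (log2 ratio -1.53, adjusted p = 2.10e-05, exact binomial test). SLC7A2 (CAT2) had 6 Nanopore counts, 14.9 CPM, and 23.4 CPM by Illumina, which did not pass the test.

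Within SLC6, 3 genes were abundant enough to be tested. SLC6A15 (B0AT2, ENSG00000072041, chromosome 12, 84859491 to 84913629), a carrier of branched-chain amino acids and proline best known from brain, had 22 Nanopore counts, 54.6 CPM (36.03 to 82.6), and 101 CPM by Illumina. Its log2 ratio was -0.88 (adjusted p = 0.00555, exact binomial test). The creatine transporter SLC6A8 (ENSG00000130821, chromosome X) had 19 Nanopore counts, 47.1 CPM (30.2 to 73.6), and 64.2 CPM by Illumina (adjusted p = 0.306, exact binomial test). The taurine transporter SLC6A6 had 4 Nanopore counts, 9.92 CPM (3.86 to 25.5), and 35.1 CPM by Illumina (adjusted p = 0.00876, exact binomial test). The glycine transporter SLC6A9 (GlyT1) had no Nanopore count and 5.92 CPM by Illumina, below the level that entered the test.

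SLC43A3 (ENSG00000134802, chromosome 11), the nucleobase carrier, had 21 Nanopore counts, 52.1 CPM (34.1 to 79.6), and 117 CPM by Illumina (log2 ratio -1.15, adjusted p = 0.000139, exact binomial test). The large neutral amino acid carriers of the same family were lower, SLC43A2 (LAT4) with 1 Nanopore count and 12.6 CPM by Illumina and SLC43A1 (LAT3) with none and 1.88 CPM. In the SLC36 family, SLC36A4 (PAT4, ENSG00000180773) had 16 Nanopore counts, 39.7 CPM (24.4 to 64.5), and 34.4 CPM by Illumina. SLC36A1 (PAT1), a lysosomal carrier, had 4 Nanopore counts and 23.3 CPM by Illumina. SLC36A4 and SLC3A1 were the only 2 of 21 tested transporters with a ratio above 0, so that 90.5% were below 0, against 63.2% of all tested genes and 71.3% of tested protein-coding genes, and neither passed the test (adjusted p = 0.752 and 0.346, exact binomial test).

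The order of levels per transcript was SLC38A2, SLC7A5, SLC3A2, SLC1A5 and SLC38A1 by Nanopore CPM. The intervals of SLC38A2 and SLC7A5 overlapped, and so did those of SLC1A5 and SLC38A1, while SLC3A2 overlapped neither of its neighbours in this order. By Illumina TPM the order was SLC38A2 at 206, SLC3A2 at 171, SLC1A5 at 114, SLC7A5 at 112 and SLC43A3 at 69.1. Among the 22 transporters with counts on both platforms the rank correlation (Spearman's rho) was 0.933 against Illumina CPM and 0.929 against Illumina TPM, a description across genes of the same 2 libraries.

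**Figure D2:**
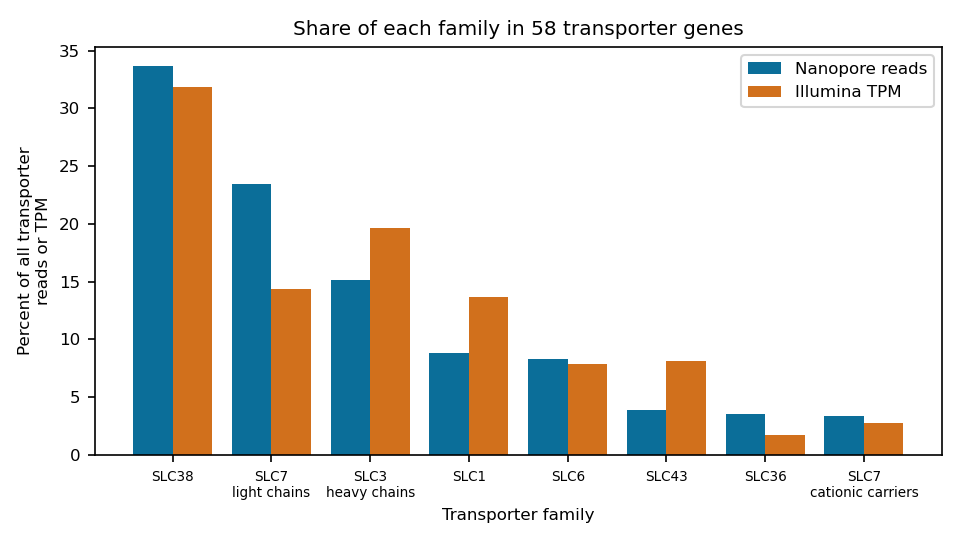
Share of each transporter family, in percent of the 568 Nanopore reads (left bar of each pair) and of the summed Illumina TPM of the 58 genes (right bar). SLC38 was the largest family on both platforms, at 33.6% and 31.9%, while the SLC7 light chains were at 23.4% and 14.3% and the SLC3 heavy chains at 15.1% and 19.6%.

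By family, SLC38 carriers made up 33.6% of the transporter reads by Nanopore and 31.9% of the transporter TPM by Illumina. The SLC7 light chains followed by Nanopore with 23.4%, against 14.3% of the TPM, and the SLC3 heavy chains with 15.1%, against 19.6%. SLC1 was at 8.80% and 13.6%, SLC6 at 8.27% and 7.86%, and SLC43 at 3.87% and 8.18%. The SLC36 and cationic SLC7 carriers were each under 4% on both platforms.

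Most transporters had a lower share of the Nanopore counts than of the Illumina counts. A mean of at least 5 CPM was reached by 21 of the 58 transporters, and these were tested. The adjusted p was below the threshold of 0.05 for 9 of them, each higher by Illumina, where 27.2% of all tested genes were, and for 0 higher by Nanopore, where 20.2% of all tested genes were. With a ratio of at least 4-fold also required, only SLC38A7 was called higher by Illumina (background 7.31%), and 0 higher by Nanopore (background 12.9%). The 4-fold size of the SLC38A7 call rests on the pseudocount. The exact interval of the SLC38A7 CPM ratio had an upper end of -0.99 (log2), short of 4-fold. The median log2 ratio of the 21 was -0.88 (quartiles -1.15 and -0.44), against -0.42 over all tested genes and -0.58 over 10498 tested protein-coding genes.

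**Figure D3:**
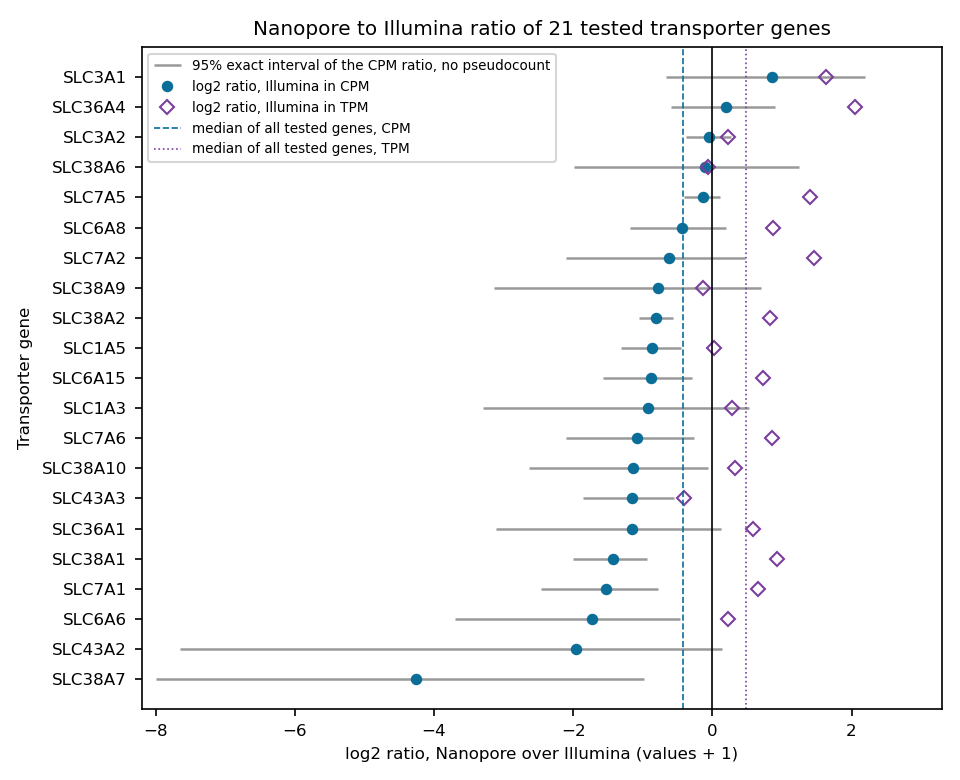
Log2 ratio of Nanopore over Illumina for the 21 tested transporters, with Illumina in CPM (filled circles) and in TPM (open diamonds, 19 genes), each with 1 added to both values. Grey bars are 95% exact intervals of the CPM ratio without the added 1, cut at the left edge for SLC38A7, which has no lower end. Vertical lines give the medians of all tested genes, -0.42 with CPM and 0.49 with TPM. In CPM 19 of the 21 circles lie below 0, and in TPM most of the 19 diamonds lie above 0.

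Transcript length moved with these ratios. The 21 tested transporters had a median reference transcript of 4556 bases (1605 to 8133), against 3287 bases for tested protein-coding genes. Spearman's rho of log2 ratio with length was -0.49 across the 21 transporters and -0.48 across 12350 tested genes, given as descriptions. With the Illumina counts in TPM the median of the 19 transporters then tested was 0.66, against 0.49 over all genes tested that way, and 5 had an adjusted p below the threshold with a higher Nanopore value (background 33.2%), and 0 with a higher Illumina value (background 11.2%). The 5 were SLC38A2, SLC7A5, SLC38A1, SLC6A8 and SLC36A4. SLC36A4 was called 4-fold higher by Nanopore in TPM (background 16.3%), with a log2 ratio of 2.05 and an adjusted p of 1.11e-05 by the exact binomial test, and 0 were called higher by Illumina (background 3.4%). With the union of all exons as length SLC36A4 was at 1.94, short of 4-fold, and was not called. Of the 19 transporters tested in TPM, 14 were below 0 in CPM and above 0 in TPM, while SLC36A4, SLC3A1, SLC43A3, SLC38A9 and SLC38A6 kept their direction.

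Several transporters share exon bases with a neighbouring gene, and in the Nanopore table both genes of some pairs had alike counts. Pairs with at least 20 shared exon bases were read, a limit set after the values were seen. Of the 22 transporters with a Nanopore count, 10 had such a neighbour in the tables, in 14 pairs, 11 of them on opposite strands. The Nanopore counts of 5 pairs were equal or 1 apart, and no pair had equal Illumina counts. Over all genes, 18.4% of 6584 such pairs had Nanopore counts at most 1 apart. Strand use and the handling of reads over several genes are not given in the sources used here, so which gene such reads came from cannot be told apart.

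**Figure D4:**
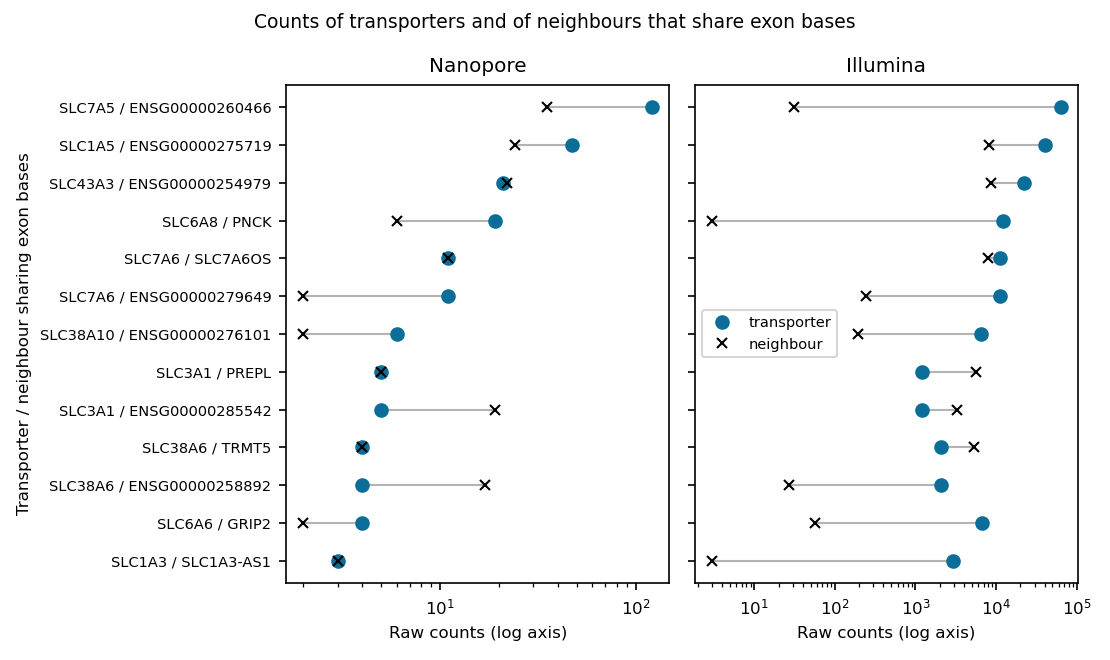
Raw counts of transporters (circles) and of neighbours that share exon bases (crosses), by Nanopore (left) and Illumina (right), each on its own log axis, for the 13 pairs in which the neighbour had a count. Circle and cross coincide by Nanopore for SLC7A6 and SLC7A6OS, SLC3A1 and PREPL, SLC38A6 and TRMT5, and SLC1A3 and SLC1A3-AS1, and are apart by Illumina in each of these pairs.

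SLC7A6 and SLC7A6OS, a gene on the opposite strand that shares 3372 exon bases with it, both had 11 Nanopore counts, against 11247 and 7987 Illumina counts. SLC3A1 and PREPL, a peptidase-like gene on the opposite strand, both had 5 Nanopore counts, against 1220 and 5677. SLC3A1 was thus level with PREPL by Nanopore and the lower of the pair by Illumina. It also shares 1761 exon bases with ENSG00000285542, a protein-coding gene on the same strand. That gene was above SLC3A1 on both platforms, with 19 Nanopore and 3252 Illumina counts. SLC43A3 had 21 Nanopore counts and ENSG00000254979, a protein-coding gene on the same strand that shares 1349 exon bases with it, had 22, against 22385 and 8644 by Illumina.

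Some antisense neighbours of abundant transporters had a Nanopore count at or above their Illumina count, despite the lower depth. The lncRNA ENSG00000260466, opposite SLC7A5 (chromosome 16, 87836532 to 87837663), had 35 counts by Nanopore and 31 by Illumina, which gave a log2 ratio of 6.24 (adjusted p = 1.05e-73, exact binomial test). SLC38A2-AS1, which overlaps the body of SLC38A2 on the opposite strand without shared exon bases, had 11 Nanopore and 6 Illumina counts. PNCK, opposite SLC6A8, had 6 Nanopore and 3 Illumina counts.

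PNCK shares only 22 exon bases with SLC6A8. The stretch is shown because it is all that the annotated exons of the pair have in common, in capitals within 30 bases of hg38 on the transporter's strand, chrX:153688811-153688840 (plus).
SLC6A8 and PNCK: ctacCTGTGCTACAAGAACGGCGGAGgtga

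Among the 11 transporters with at least 10 Nanopore counts, SLC6A8 and SLC7A5 share sequence with pseudogenes elsewhere. Of the 50-base words in the reference transcript of SLC6A8, 6.88% also occur in the pseudogene SLC6A10P on chromosome 16, which had 40 Illumina counts and no Nanopore count, and 7.19% in the pseudogene ENSG00000198555, with 4 Illumina counts and none by Nanopore. For SLC7A5, 4.02% occur in the pseudogene SLC7A5P2, with 6 Illumina counts and none by Nanopore. SLC38A7, the gene without a Nanopore count, shared under 1% of its words with any other gene, overlapped no other gene body and had no copy on an alternate contig of hg38, whereas SLC43A2 and SLC6A3 had such a copy.

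The genes around the transporters were read from 4 lists, whose counts stand beside a background of 27.2% of tested genes past the adjusted p higher by Illumina and 20.2% higher by Nanopore. In the amino acid response list, 12 of 14 genes were tested, 5 passed higher by Illumina and 2 higher by Nanopore, and the median log2 ratio was -0.73. ATF4, its transcription factor, had 88 Nanopore counts, 218 CPM (177 to 269), and 365 CPM by Illumina (log2 ratio -0.74). CEBPB, a partner of ATF4, was at 228 and 82.7 CPM, a ratio of 1.45, and DDIT4, an mTORC1 inhibitor, at 146 and 188 CPM. DDIT3, the factor CHOP, with 23 Nanopore counts (57.0 CPM) and 5.43 CPM by Illumina, was called higher by Nanopore (3.17), and GCN1, the activator of GCN2, and the secreted glycoprotein STC2 were called higher by Illumina (-2.18 and -2.06). With Illumina TPM DDIT3 stayed called (2.49), while GCN1 at 0.27 and STC2 at -0.65 did not pass (adjusted p = 0.692 and 0.521, exact binomial test).

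Among 22 enzymes of serine, glycine, asparagine, proline and glutamine metabolism, 21 were tested, 8 passed higher by Illumina and 1 (ARG2) higher by Nanopore, and the median was -0.52. GLUL, glutamine synthetase, was at 417 CPM by Nanopore and 408 CPM by Illumina, and GLUD1, glutamate dehydrogenase, at 228 and 193 CPM. SHMT2, the mitochondrial serine hydroxymethyltransferase, was at 122 and 272 CPM (log2 ratio -1.16). Illumina TPM gave log2 ratios of 2.30 for GLUL, 1.32 for GLUD1 and -0.68 for SHMT2. SHMT1 and GPT2 were called higher by Illumina (-2.22 and -2.67), on 3 and 1 Nanopore counts, and neither passed with Illumina TPM (-1.54 and -1.41, adjusted p = 0.0643 and 0.455, exact binomial test).

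In the list of amino acid sensing by mTORC1, 29 of 34 matched genes were tested, 6 passed higher by Illumina and 2 (RHEB and NPRL3) higher by Nanopore, and the median was -0.19. By the mean of both platforms the highest were SEC13 (91.8 and 133 CPM), a subunit of GATOR2, and the Ragulator subunits LAMTOR5 (104 and 107 CPM) and LAMTOR4 (86.8 and 86.9 CPM). Illumina TPM gave log2 ratios of -0.72 for SEC13, -1.35 for LAMTOR5 and -1.37 for LAMTOR4. DEPDC5, a GATOR1 subunit, had no Nanopore count and 18.1 CPM by Illumina, the level of SLC38A7. Its adjusted p was 0.00413 (exact binomial test), and the 4-fold size of its call likewise rests on the pseudocount. Of 24 amino acid and peptide carriers of other families, 13 were tested, 1 passed in each direction and the median was -0.65. SLC25A12, the mitochondrial aspartate-glutamate carrier, was the 1 higher by Nanopore (104 and 35.4 CPM), TMEM104 was higher by Illumina (-2.54, on 1 Nanopore count), and SLC25A44 and SLC25A13 were at 29.8 and 55.5 CPM and at 32.2 and 52.2 CPM.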

How the data were processed

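The authors deposited whole-number counts per Ensembl gene for 2 libraries, without normalization. Per the submitters' processing notes the tools were minimap2 2.11-r797, HISAT2 2.1.0 and featureCounts, with build hg38. The annotation, strand and multi-mapping settings, whether Illumina values count reads or fragments, and any correction of the Nanopore reads are not given in the sources used here. Gene names, positions and lengths came from GENCODE release 44 (hg38), which matched 58207 of 58735 identifiers, and promoter sequences from RefSeq (GRCh38.p14).

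Counts were scaled to library totals (CPM). With 1 library per platform edgeR's quasi-likelihood test has no residual degrees of freedom, so genes whose 2 CPM values averaged 5 or more were compared by a two-sided exact binomial test on the counts, with Benjamini-Hochberg adjustment over all of them. Calls needed an adjusted p under 0.05 and a 4-fold ratio of CPM + 1. The test was checked on simulated counts with counting error as the only noise, which says nothing of other differences between the platforms. Other scalings (TMM in edgeR 4.0.16, median ratio), lengths, filters, pseudocounts and thinned Illumina counts were tried. Promoter motifs, 50-base words and alternate-contig copies (minimap2 2.31) were read from the reference. Named were transporters with at least 10 Nanopore counts, called ones, tested ones without a Nanopore count, and the 3 most abundant and the called genes of each pathway list; others named in passing were chosen after their values were seen. The members and gene lists were chosen with earlier results of these data known. SAMTOR could not be matched by name. The values of several genes next to a transporter are left out of the text.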

Additional observations from a re-analysis of the deposited data

How the results depend on the processing

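Pseudocounts of 0.1 and 5 CPM and a filter of 1 CPM kept the counts of transporters past each threshold, and without a filter these counts held while the median over 41 transporters was -0.44. Dividing the Illumina counts by reference transcript length gave 1 transporter called higher by Nanopore and 0 higher by Illumina, 5 and 0 at the adjusted p alone, and a median of 0.66. Union exonic length gave 0 called in either direction, 6 higher by Nanopore and 1 higher by Illumina at the adjusted p alone, and a median of 0.54. A filter of 20 CPM gave 0 called higher by Illumina, since SLC38A7 was then not tested, and genes without overlap gave 3 of 4 tested transporters past the adjusted p. TMM and median-ratio scaling raised Nanopore/Illumina ratios by 0.088 and 0.13 (log2) before the pseudocount, and moved the median of all tested genes from -0.42 to -0.32 and -0.28.

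With a minimum of 10 counts 11 transporters were detected by Nanopore, and Illumina counts thinned to the Nanopore total detected 24 (median of 20 draws). When mitochondrially encoded genes were left out, transporters made up 0.157% of counts by Nanopore and 0.241% by Illumina. They made up 0.0889% of Illumina TPM. The ratio of SLC3A2 to SLC7A5 by Illumina became 0.469 with union length.

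Reference transcript length turned the sign of 14 of 19 ratios. Among transporters with at least 10 Nanopore counts these became 0.82 for SLC38A2, 1.41 for SLC7A5, 0.030 for SLC1A5, 0.93 for SLC38A1, 0.23 for SLC3A2, 0.72 for SLC6A15, 0.66 for SLC7A1, 0.87 for SLC6A8 and 0.86 for SLC7A6. With union length they were 0.46 for SLC38A2, 0.67 for SLC7A5, 0.44 for SLC38A1, 1.18 for SLC3A2, 1.93 for SLC6A15, 0.61 for SLC6A8 and 0.37 for SLC7A6. SLC1A5 at -0.56 (adjusted p = 0.014, exact binomial test) and SLC7A1 at -0.050 stayed below 0 with union length. SLC3A2 also became 0.037 with TMM, 0.076 with median-ratio scaling and 0.091 with thinned Illumina counts. In the first thinned draw the adjusted p of SLC38A7 (exact binomial test) was 0.146, with a ratio of -3.74, and in that draw SLC6A15, SLC7A1 and SLC7A6 also missed the threshold (0.153, 0.0791 and 0.225). Over 20 draws the median was 6 transporters past it in place of 9. The median called higher by Illumina was 1, a count that does not tell which transporter was called in each draw. For single genes, apart from length and scaling, the cause of these changes was not tested. No paired analysis was possible because each platform has 1 library. At the Nanopore depth, levels under 7.44 CPM could not be told from 0.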
